A study of Mus musculus with 12 samples.

Results

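The genes described here encode the proteins of the cytosolic ribosome, measured in unstimulated CD8 T cells with or without the scurfy mutation. They were taken by gene symbol, as the Rpl and Rps genes with a plain number or number and letter together with Rplp0, Rplp1, Rplp2 and Rpsa, and names of pseudogenes were left out. This gave 81 of the 11581 genes in the table, 49 of the large and 32 of the small subunit. Of these, 80 are annotated as protein coding in GENCODE M21. The exception is Rps12l1, whose symbol met the rule but which that annotation calls a processed pseudogene. Fau, Rps3a1, Rps27rt, Rpl37rt and Rack1 (listed here under its older symbol Gnb2l1) have names outside the rule and are given apart. The members were chosen by name, but with earlier results of these data known.

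A cytosolic ribosome is built from a small subunit, which holds the messenger RNA and reads its codons, and a large subunit, which joins amino acids and lets the new chain out through an exit tunnel. Each subunit contains ribosomal RNA and a fixed set of proteins, nearly all present in a single copy, so cells keep the genes of both subunits in step. Their messenger RNAs typically start with a cytosine followed by a run of pyrimidines, the terminal oligopyrimidine tract, through which the kinase complex mTORC1 and the RNA-binding protein Larp1 control their translation. Resting T cells make few ribosomes, and activated T cells make many.

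The study compared CD8 T cells that carry Foxp3Scurfy with cells that carry the wild-type allele, Foxp3wt. Foxp3 encodes the transcription factor that defines regulatory T cells, and the scurfy allele is known to abolish its function. In the scurfy group, marrow from OT-1 Foxp3Scurfy donors marked CD45.1+/2+ had been mixed with marrow from CD45.2+ donors, and the host mice were CD45.2+ C57BL/6 J. The wild-type group was built in the same way with OT-1 Foxp3wt marrow. OT-1 is a transgenic T cell receptor for the ovalbumin peptide SIINFEKL. In both groups CD8 T cells were purified 2 months after reconstitution, and polyadenylated RNA was sequenced from 3 unstimulated scurfy and 3 unstimulated wild-type libraries. Each host thus held cells of both marrows, and the labels do not say whether the CD45.2+ cells were removed from the purified CD8 cells. The series has 12 samples in 4 groups. The 6 libraries from peptide-stimulated cells were not analysed here. Both tables carry the column names of the unstimulated libraries, with equal values. Foxp3 itself has no row in the table, so the genotype could not be checked from it.

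The scurfy libraries held 10091477, 10189535 and 10498525 reads and the wild-type libraries 8852518, 23149523 and 12841455. The deposited value, called a normalized count below, is the read count divided by a single factor for each library, and 3 reads correspond to 1.45 to 3.99 normalized counts. Whether each library stands for its own mouse is not in the labels, and the p-values refer to the spread among these libraries, which may be technical. The libraries numbered 3 lay farthest apart. Principal components were taken over the 9188 genes with a mean of at least 50 normalized counts, and the leading one held 46.4% of their variance. On it scurfy library 3 scored −31.4, wild-type library 3 scored 24.4 and the other 4 libraries lay between −12.0 and 15.6. The CD8 T cell markers Cd3d, Cd3e, Cd3g, Cd8a and Cd8b1 were all present, with a summed level of 46258 to 53898 normalized counts in scurfy and 41271 to 42404 in wild-type libraries, and 1 of the 5, Cd3d, rose. Of the B cell markers 7 of 10 had a row, Cd79a and Ms4a1 not among them. Their summed level was 9895 to 11352 normalized counts in scurfy and 10971 to 11753 in wild-type libraries, nearly all of it Ighm, and 1 of the 7, H2-Aa, fell. Of 6 myeloid markers only Cst3 had a row, at 1406 to 1523 normalized counts in scurfy and 821 to 1131 in wild-type libraries, and it rose. Of 3 erythroid markers only Car2 had a row, at 101 to 156 normalized counts in scurfy and 232 to 315 in wild-type libraries, and it fell. Cd4 and the 3 natural killer cell markers had no row. The part of other cells in the values below was not tested. In bulk RNA more of a transcript per cell and more cells that express it cannot be told apart.

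The stretches around the start sites of 8 members are shown because these genes span the range of the results described below. Rpl26, Rpl31, Rpl38 and Rps6 passed the test, Rps25 and Rps27 had large differences that did not pass it, and Rplp0 and Rps13 differed little. Each line holds 75 bases before and 25 from the annotated start, 5′ to 3′ on the gene's strand, from RefSeq on GRCm38.p6, and the capitals mark the longest unbroken run of C and T. Rpl26 and Rps13 each have a second run of equal length farther upstream, and there the run nearer the start is in capitals.
Rpl26: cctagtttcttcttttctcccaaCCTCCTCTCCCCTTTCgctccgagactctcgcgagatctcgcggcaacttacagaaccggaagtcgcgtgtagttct
Rpl31: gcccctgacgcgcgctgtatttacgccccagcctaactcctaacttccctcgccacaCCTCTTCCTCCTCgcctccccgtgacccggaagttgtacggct
Rpl38: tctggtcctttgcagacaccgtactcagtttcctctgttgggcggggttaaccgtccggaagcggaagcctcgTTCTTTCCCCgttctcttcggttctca
Rps6: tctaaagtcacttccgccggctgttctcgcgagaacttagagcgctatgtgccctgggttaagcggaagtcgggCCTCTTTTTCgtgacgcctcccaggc
Rps25: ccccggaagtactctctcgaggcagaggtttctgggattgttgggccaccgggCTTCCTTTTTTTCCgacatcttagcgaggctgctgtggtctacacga
Rps27: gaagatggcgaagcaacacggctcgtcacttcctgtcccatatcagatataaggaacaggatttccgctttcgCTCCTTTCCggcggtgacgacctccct
Rplp0: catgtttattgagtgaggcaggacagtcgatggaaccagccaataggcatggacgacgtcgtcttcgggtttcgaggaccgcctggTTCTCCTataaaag
Rps13: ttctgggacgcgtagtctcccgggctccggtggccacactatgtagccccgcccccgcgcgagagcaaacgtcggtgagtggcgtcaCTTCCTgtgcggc

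These windows lie at chr11:68901491-68901590 on the plus strand for Rpl26, chr1:39367776-39367875 on the plus strand for Rpl31, chr11:114668505-114668604 on the plus strand for Rpl38 and chr4:86857343-86857442 on the minus strand for Rps6. They lie at chr9:44407639-44407738 on the plus strand for Rps25, chr3:90213624-90213723 on the minus strand for Rps27, chr5:115559392-115559491 on the plus strand for Rplp0 and chr7:116334166-116334265 on the minus strand for Rps13. In Rpl38, Rps6 and Rps27 the longest pyrimidine run, of 10, 10 and 9 bases, crosses the annotated start. In Rplp0 it has 7 bases and begins at base 12 after the start. RefSeq entries were matched by symbol for 60 of the 81 members, with 71 start sites. A run of at least 8 pyrimidines lay in such a window at 64.8% of the members' start sites and at 36.7% of all 32851 start sites in the table. By gene, 12 of the 15 members with an entry that passed the test below held such a run, and 30 of the 45 that did not. The letters CCGGAAG, the core of Ets family sites, on either strand and within the whole 300-base entry were at 35.2% of the members' start sites and at 8.86% of all, and in 7 of the 15 and 17 of the 45. The letters AAGATGGC, the core of YY1 sites, on either strand were at 11.3% of the members' start sites and at 2.75% of all, and in 2 of the 15 and 4 of the 45. These are matches of letters, not measured sites.

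The members took up a larger share of the reads in every scurfy library than in any wild-type library. The share was 35.8, 37.0 and 37.7% of the reads in scurfy libraries and 33.4, 31.5 and 28.9% in wild-type libraries, with means of 36.8 ± 0.953% and 31.3 ± 2.24% (SD, n = 3 each). The difference was 5.58 percentage points. Large subunit genes took 17.9, 18.3 and 18.6% in scurfy and 17.0, 16.2 and 15.0% in wild-type libraries. Small subunit genes took 17.9, 18.7 and 19.1% in scurfy and 16.4, 15.3 and 13.9% in wild-type libraries. Neither subunit's shares overlapped between the groups. The ratio of small to large subunit reads was 1.00, 1.02 and 1.03 in scurfy and 0.961, 0.946 and 0.922 in wild-type libraries, so the balance of the subunits also lay apart without overlap. No test was made of these shares. The wild-type libraries were spread more widely than the scurfy libraries, and wild-type library 3 had the lowest share of both subunits.

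**Figure D1:**
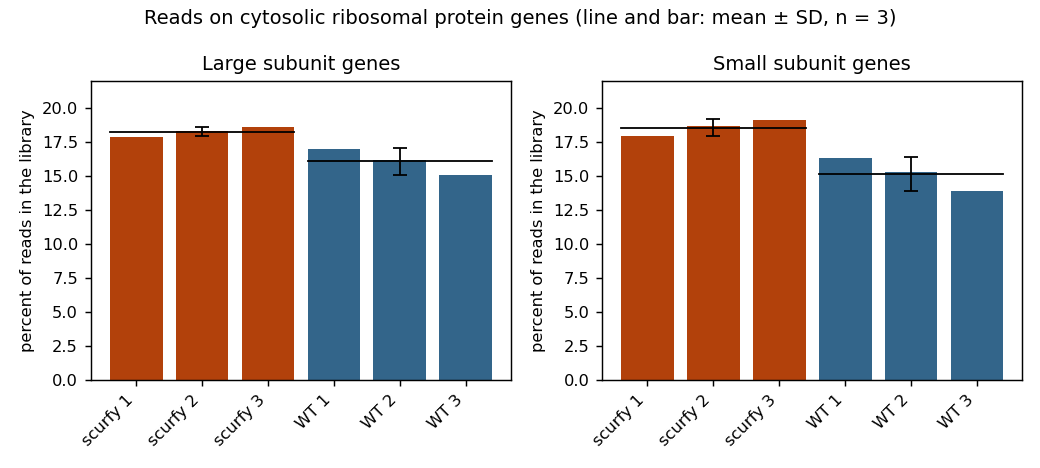
Percent of each library's reads on large subunit genes (left) and small subunit genes (right), 3 scurfy libraries in orange and 3 wild-type libraries in blue, with the mean ± SD of each group in black. All scurfy bars stand above all wild-type bars, by more for the small subunit (18.6 ± 0.614% and 15.2 ± 1.25%) than for the large (18.3 ± 0.339% and 16.1 ± 0.989%).

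Gene by gene, 18 of the 81 members rose in scurfy cells and none fell (limma on log2(normalized count + 1), Benjamini-Hochberg adjusted p under 0.05 over all genes). At an unadjusted p under 0.05 there were 44 members higher and 0 lower, against 2456 of all 11581 genes in either direction. The counts of members called lower by edgeR and DESeq2 were also 0. The 18 that rose with limma are 22.2% of the members, against 2.12% of all genes called higher and 2.35% called lower. Over all genes 246 rose and 272 fell. With each library scaled to its own total, the split over all genes was 168 higher and 761 lower, and the median of all genes shifted by −0.14 on the log2 scale. The large subunit had 13 of 49 members that rose, with a median log2 fold change (scurfy over wild type) of 0.27, and the small subunit had 5 of 32, with a median of 0.48. The median over all genes was 0.0096. Relative to the median of all genes, the medians of large and small subunit were 0.26 and 0.47, both as deposited and scaled to the library total. A change of the factor for each library shifts all genes nearly alike, so this equality was fixed in advance and is no check. The log2 fold change was above 0 for 42 of the 49 large subunit and for all 32 small subunit members, though with the library total scaling for 37 and 30, Rps13 and Rps29 then being below 0, and for 33 and 27 when a trend with gene length, described further on, was taken out. The 3 scurfy values lay above the 3 wild-type values, without overlap, for 24 large and 21 small subunit members, 55.6% of all members, against 13.4% of all genes, and for no member did they lie below, against 13.7% of all genes.

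**Figure D2:**
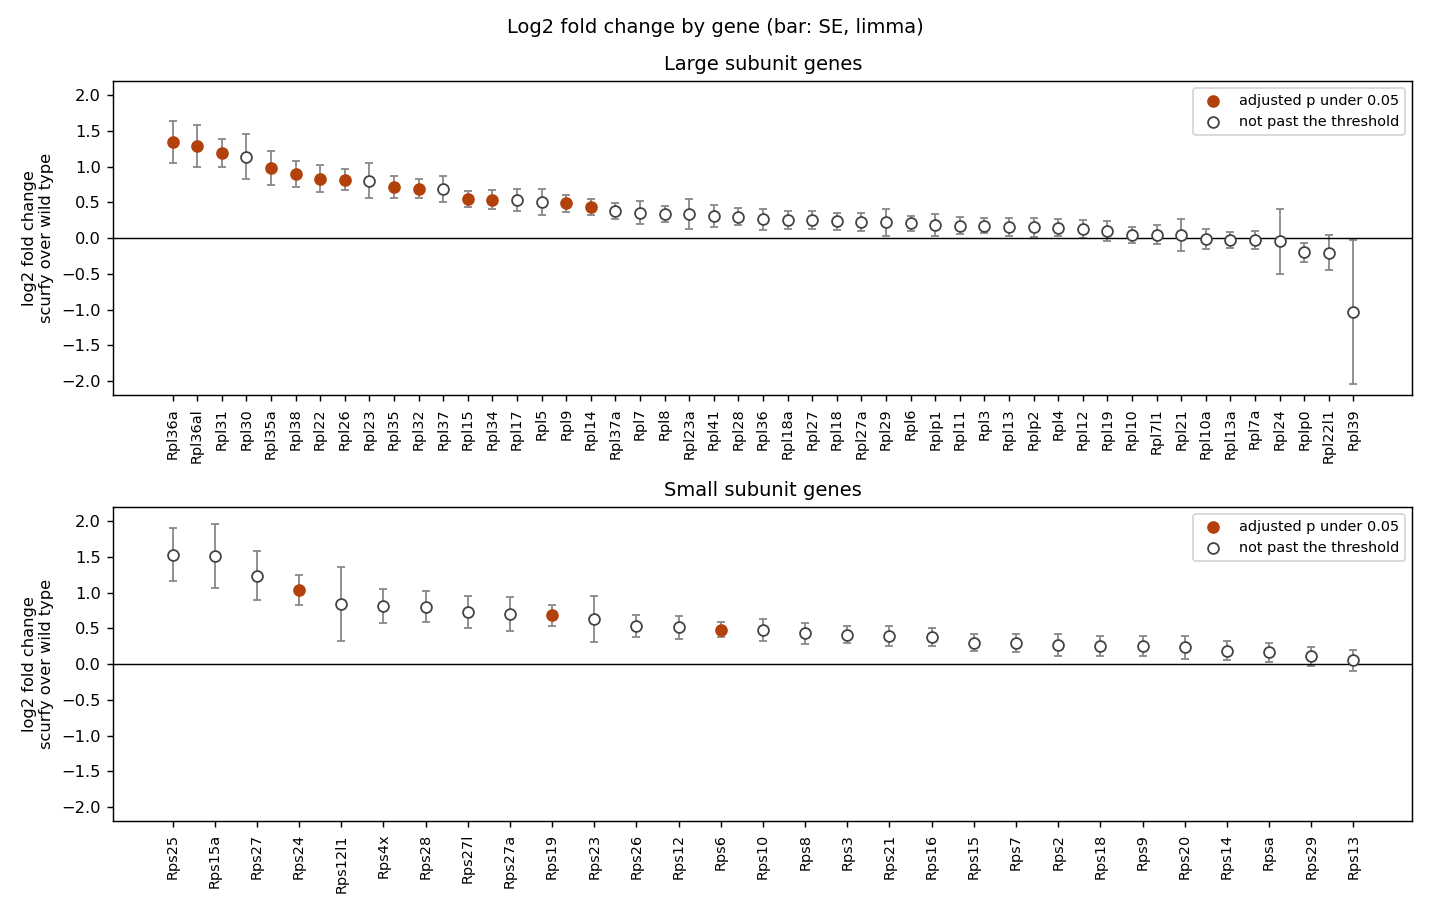
Log2 fold change (scurfy over wild type) of 49 large subunit genes (top) and 29 small subunit genes (bottom), in order of size, with the SE as a bar; filled points have an adjusted p under 0.05. Points run from 1.35 to −1.04 in the large and from 1.53 to 0.053 in the small subunit, and several of the highest small subunit points have long bars and are open.

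Counts of members moved with single libraries. Leaving out each library in turn gave 2 to 12 large and 2 to 6 small subunit members that rose, and medians of 0.22 to 0.39 and 0.37 to 0.57. The fewest, 2 large and 3 small subunit members, came without wild-type library 3, when 0.656% of all genes were called higher. Without the libraries numbered 3 of both groups, an alternative chosen after seeing the data, 12 large and 10 small subunit members rose, with medians of 0.26 and 0.37, and 16 of the 18 were among them. In that fit 1.56% of all genes were called higher. DESeq2 on the recovered reads gave 17 large and 17 small subunit members that rose, against 3.58% of all genes called higher by it. The authors' deposited table also has 34 members higher at an adjusted p under 0.05. With edgeR's quasi-likelihood test the counts were 12 and 6, against 2.15% of all genes.

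The large subunit members that rose with the smallest p were Rpl26 and Rpl31, both at the rim of the exit tunnel, where chaperones and targeting factors meet the new protein. Rpl26 (ENSMUSG00000060938, chromosome 11) had 31557, 32701 and 47186 normalized counts in scurfy libraries and 21241, 21257 and 19541 in wild-type libraries. This is a log2 fold change of 0.82 ± 0.14 (SE), with an adjusted p of 0.00824. Rpl31 (ENSMUSG00000073702, chromosome 1) had 21924, 23509 and 29950 normalized counts in scurfy and 11828, 14129 and 7689 in wild-type libraries. Rpl31 rose by 1.20 ± 0.19 on the log2 scale, with an adjusted p of 0.00834. Both were higher in every scurfy library than in any wild-type library, and scurfy library 3 was the highest. These were the 2 of the 18 that kept the call whichever library was left out, at adjusted p of at most 0.0328 for Rpl26 and 0.0352 for Rpl31. Rpl35, also at the tunnel exit and known as a docking site of the signal recognition particle, had 27534, 29074 and 30460 normalized counts in scurfy and 20759, 20439 and 12910 in wild-type libraries. It rose by 0.72 ± 0.16 on the log2 scale, with an adjusted p of 0.0228. Rpl22 lies near the exit as well and is needed for the development of alpha-beta T cells in mice. It had 26849, 29252 and 37381 normalized counts in scurfy and 20894, 19908 and 12431 in wild-type libraries, and rose by 0.84 ± 0.18 with an adjusted p of 0.0256. Rpl35 and Rpl22 both lost the call without scurfy library 2 or 3 or wild-type library 3, with adjusted p of up to 0.0697 and 0.0761. Over the 9 members placed at the tunnel and its mouth, a group drawn up after the values were seen, 4 rose (44.4%) and 0 fell. Their median log2 fold change was 0.53. Over all members 22.2% rose, with a median of 0.38, and 2.12% of all genes were called higher. Rpl4, Rpl17, Rpl19, Rpl23a and Rpl39 of this group did not pass the test with limma, while DESeq2 called Rpl17 higher at an adjusted p of 0.0147.

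Away from the tunnel, Rpl32, Rpl15 and Rpl38 rose. Rpl32 (ENSMUSG00000057841, chromosome 6) had 71189, 77211 and 92259 normalized counts in scurfy and 48179, 57576 and 43099 in wild-type libraries, a log2 fold change of 0.69 ± 0.14 with an adjusted p of 0.0157. Rpl15, a protein of the large subunit core, was low for a member, with 4320, 4789 and 5193 normalized counts in scurfy and 3533, 3390 and 2843 in wild-type libraries. It rose by 0.55 ± 0.11 on the log2 scale, with an adjusted p of 0.0177. Rpl38, whose loss in mice disturbs the patterning of the skeleton, had 32694, 33249 and 57797 normalized counts in scurfy and 21043, 23129 and 19804 in wild-type libraries. It rose by 0.90 ± 0.18, with an adjusted p of 0.0188. In all 3 genes the groups did not overlap, and in Rpl38 scurfy library 3 stood well above the other 5 libraries. Leaving out wild-type library 3 ended the call of each, at adjusted p of 0.0548 for Rpl32, 0.0687 for Rpl15 and 0.0875 for Rpl38. Leaving out scurfy library 2 ended those of Rpl32 and Rpl15, and wild-type library 1 that of Rpl38. Rpl14, Rpl9, Rpl34 and Rpl35a also rose, with log2 fold changes of 0.43, 0.49, 0.54 and 0.99 and adjusted p from 0.0316 to 0.0474. Rpl35a lost the call without scurfy library 2 or wild-type library 1 or 3. Rpl9 kept it only without scurfy library 3, Rpl34 only without scurfy library 1, and Rpl14 in none of the 6 fits that leave out a library. All 4 lost the call with the library total scaling, under which 13 of the 18 kept it. Rpl30 (log2 fold change 1.14, adjusted p 0.0916), Rpl23 (0.81, 0.0963) and Rpl37 (0.69, 0.0510) had differences as large without passing the test with limma. DESeq2 called Rpl37 higher, at an adjusted p of 0.00313, but not Rpl30 or Rpl23.

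Rpl36a and its relative Rpl36al encode near-identical proteins that reach toward the exit site for transfer RNA. Rpl36a, on the X chromosome, had 12682, 15781 and 27852 normalized counts in scurfy and 7720, 8230 and 5315 in wild-type libraries. Rpl36al, on chromosome 12, was far lower, with 417, 356 and 653 normalized counts in scurfy and 209, 273 and 116 in wild-type libraries. Their log2 fold changes were 1.35 ± 0.30 and 1.29 ± 0.30, with adjusted p of 0.0488 and 0.0315. Both genes had their highest value in scurfy library 3 and their lowest in wild-type library 3. Without wild-type library 1 the adjusted p was 0.137 for Rpl36a and 0.0841 for Rpl36al. Rpl36a also lost its call without scurfy library 2 or wild-type library 2 or 3, and Rpl36al without scurfy library 1 or 3 or wild-type library 3. The authors' counting could have split reads between such similar genes, so the values of each are uncertain.

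Rpl22 and Rpl7 have relatives that are also in the table. Rpl22l1, which can replace Rpl22 in the ribosome, had 173, 176 and 105 normalized counts in scurfy and 161, 146 and 209 in wild-type libraries, with a log2 fold change of −0.21 ± 0.25 and an adjusted p of 0.674. The groups overlapped for Rpl22l1, while they did not for Rpl22, and the difference between the 2 genes was not tested. Rpl7 had 32234, 30121 and 31042 normalized counts in scurfy and 30020, 26905 and 17829 in wild-type libraries, with a log2 fold change of 0.36 ± 0.16 and an adjusted p of 0.216. Rpl7l1 had 535, 542 and 634 normalized counts in scurfy and 602, 507 and 544 in wild-type libraries, with a log2 fold change of 0.049 ± 0.14 that was below 0 with the library total scaling. Its adjusted p was 0.875. Neither gene passed the test, and for Rpl7 only wild-type library 3 stood far from the others.

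The stalk of the large subunit, which recruits the factors that drive elongation, showed no gene that passed the test with limma, edgeR or DESeq2, and none with an unadjusted p under 0.05. Rplp1 had the highest mean of all members, with 297734, 308636 and 257565 normalized counts in scurfy and 310117, 246365 and 213079 in wild-type libraries. The highest of these 6 values belonged to wild-type library 1 and the groups overlapped (log2 fold change 0.18 ± 0.15, adjusted p 0.529). Rplp2 had 145467, 151969 and 134431 normalized counts in scurfy and 147135, 110993 and 131879 in wild-type libraries, with a log2 fold change of 0.15 ± 0.13 and an adjusted p of 0.539. Both were below 0 with the length trend removed. Rplp0, the base of the stalk, had 101009, 74038 and 75343 normalized counts in scurfy and 94090, 95136 and 95343 in wild-type libraries. Its log2 fold change was −0.20 ± 0.13, with an adjusted p of 0.422. The 3 wild-type values of Rplp0 nearly coincided, and scurfy libraries 2 and 3 lay below them and scurfy library 1 above. With Rpl12, at 0.13, the 4 genes of the stalk and its base had a median log2 fold change of 0.14. Over all members 22.2% rose, with a median of 0.38, and 2.12% of all genes were called higher. With only 4 genes, the lack of a call does not set the stalk apart from these shares. This group, too, was chosen with earlier results of these data known. Rpl5 (0.51, adjusted p 0.129) and Rpl11 (0.18, adjusted p 0.419), which carry the 5S ribosomal RNA and can bind Mdm2, did not pass the test either, though DESeq2 called Rpl5 higher.

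Rpl24 and Rpl39, both low for members, varied widely between libraries of a group. Rpl24, a bridge to the small subunit, had 27.9, 63.5 and 18.9 normalized counts in scurfy and 27.9, 33.8 and 39.4 in wild-type libraries, with a log2 fold change of −0.046 ± 0.45 and an adjusted p of 0.969. Rpl39, a short protein that lines the exit tunnel, had 240, 215 and 33.1 normalized counts in scurfy and 283, 108 and 492 in wild-type libraries. Its log2 fold change was −1.04 ± 1.01, the lowest of all members, with an adjusted p of 0.621. The groups overlapped for both genes. Without the libraries numbered 3 of both groups the log2 fold change of Rpl39 was 0.37. On average over the 6 libraries Rpl24 had 35.2 and Rpl39 228 normalized counts, against 272250 for Rplp1. Copies of these genes elsewhere in the genome could take their reads in the authors' counting, so their levels are uncertain.

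Among the small subunit members that rose were Rps24, Rps6 and Rps19. Rps24 (ENSMUSG00000025290, chromosome 14) had 53211, 61992 and 101577 normalized counts in scurfy and 37610, 36209 and 28301 in wild-type libraries, a log2 fold change of 1.04 ± 0.20 with an adjusted p of 0.0185. Rps6 is the small subunit protein that S6 kinases phosphorylate downstream of mTORC1. It had 6053, 6335 and 7101 normalized counts in scurfy and 4337, 4680 and 4934 in wild-type libraries, and rose by 0.48 ± 0.10 with an adjusted p of 0.0212. With each library scaled to its own total, Rps6 no longer passed the test. Rps19, the gene most often mutated in human Diamond-Blackfan anaemia, had 148474, 161987 and 132125 normalized counts in scurfy and 113870, 90768 and 74502 in wild-type libraries. It rose by 0.68 ± 0.15, with an adjusted p of 0.0239. None of these 3 overlapped between the groups. Rps19 was highest in scurfy library 2, and Rps24 and Rps6 in scurfy library 3. Rps24 lost its call only without wild-type library 3, at an adjusted p of 0.0806. Rps6 lost it without scurfy library 2 or wild-type library 1 or 2, at up to 0.0701. Rps19 lost it without scurfy library 1 or 2 or wild-type library 2 or 3, at up to 0.108.

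The largest small subunit differences did not pass the test with limma or edgeR, and in these genes the libraries of a group differed widely. Rps25, a protein near the exit site that many viral internal ribosome entry sites need, had 18817, 21731 and 36300 normalized counts in scurfy and 10501, 11190 and 5204 in wild-type libraries. Its log2 fold change was 1.53 ± 0.37, the largest of all members, with an adjusted p of 0.0743. Rps27, a zinc finger protein, had 33147, 39871 and 88354 normalized counts in scurfy and 22934, 20996 and 18383 in wild-type libraries, with a log2 fold change of 1.24 ± 0.34 and an adjusted p of 0.0897. Its relative Rps27l, a target of p53, had 1462, 1529 and 1867 normalized counts in scurfy and 1174, 1238 and 624 in wild-type libraries, with 0.73 ± 0.22 and 0.0889. Rps15a had a log2 fold change of 1.51 and an adjusted p of 0.141. In each of these 4 genes all scurfy values lay above all wild-type values, scurfy library 3 was the highest and wild-type library 3 the lowest. DESeq2 called all 4 higher, at adjusted p of 0.0098 for Rps25, 0.0268 for Rps15a, 0.0457 for Rps27 and 0.0158 for Rps27l. Without the libraries numbered 3 of both groups, the log2 fold change of Rps25 was 0.90 with an adjusted p of 0.000394, that of Rps15a 0.80 with 0.000804, and that of Rps27 0.73 with 0.00279. Leaving both libraries out thus lowered the differences of these 3 and brought each past the threshold. Rps27l, at 0.31 with an adjusted p of 0.154, did not pass in that fit.

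Other small subunit genes differed little. Rps14, lost in the human 5q− syndrome, had the highest small subunit mean, with 170161, 188625 and 159283 normalized counts in scurfy and 165953, 153459 and 135544 in wild-type libraries. This is a log2 fold change of 0.19 ± 0.13, with an adjusted p of 0.431. Rpsa, also known as the laminin receptor, had 117686, 117760 and 99594 normalized counts in scurfy and 113547, 92263 and 93136 in wild-type libraries, with a log2 fold change of 0.17 ± 0.13 and an adjusted p of 0.496. Rps13 had 73852, 77706 and 67385 normalized counts in scurfy and 86621, 69669 and 57378 in wild-type libraries. Its log2 fold change of 0.053 ± 0.15, the lowest of the small subunit, was below 0 with the library total scaling and with the length trend removed (adjusted p 0.871). The groups overlapped for all 3 genes. The processed pseudogene Rps12l1 had 31.5, 34.2 and 22.5 normalized counts in scurfy and 22.6, 22.2 and 7.55 in wild-type libraries, with a log2 fold change of 0.84 ± 0.52 and an adjusted p of 0.375. Its sequence comes from Rps12, so its reads are uncertain.

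By place in the small subunit, in groups also drawn up after the values were seen, none of the members at the entry of the messenger RNA (Rps2 and Rps3) or in the decoding region (Rps15, Rps18 and Rps23) passed the test. Their median log2 fold changes were 0.34 and 0.30. At an unadjusted p under 0.05 there was 1 of each, DESeq2 called 1 and 0 higher, and edgeR called none. The 5 members at the exit of the messenger RNA and the exit site for transfer RNA had a higher median, 0.53. None of these 5 passed the test with limma, but 4 had an unadjusted p under 0.05. DESeq2 called 3 of them higher and edgeR 1. Of 18 members whose human counterparts are mutated in Diamond-Blackfan anaemia, a failure of red cell production, 8 rose (44.4%) and 0 fell. All 18 had a log2 fold change above 0, with a median of 0.62. Over all members 22.2% rose, 74 of 81 were above 0 and the median was 0.38. Over all genes 2.12% were called higher. The anaemia group, too, was chosen with earlier results of these data known. Among the 8 are Rpl15, Rpl26, Rpl31, Rpl35, Rpl35a, Rps19 and Rps24. With the library total scaling Rps29 of this group was below 0, and with the length trend removed Rps29 and Rpl11 were.

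**Figure D3:**
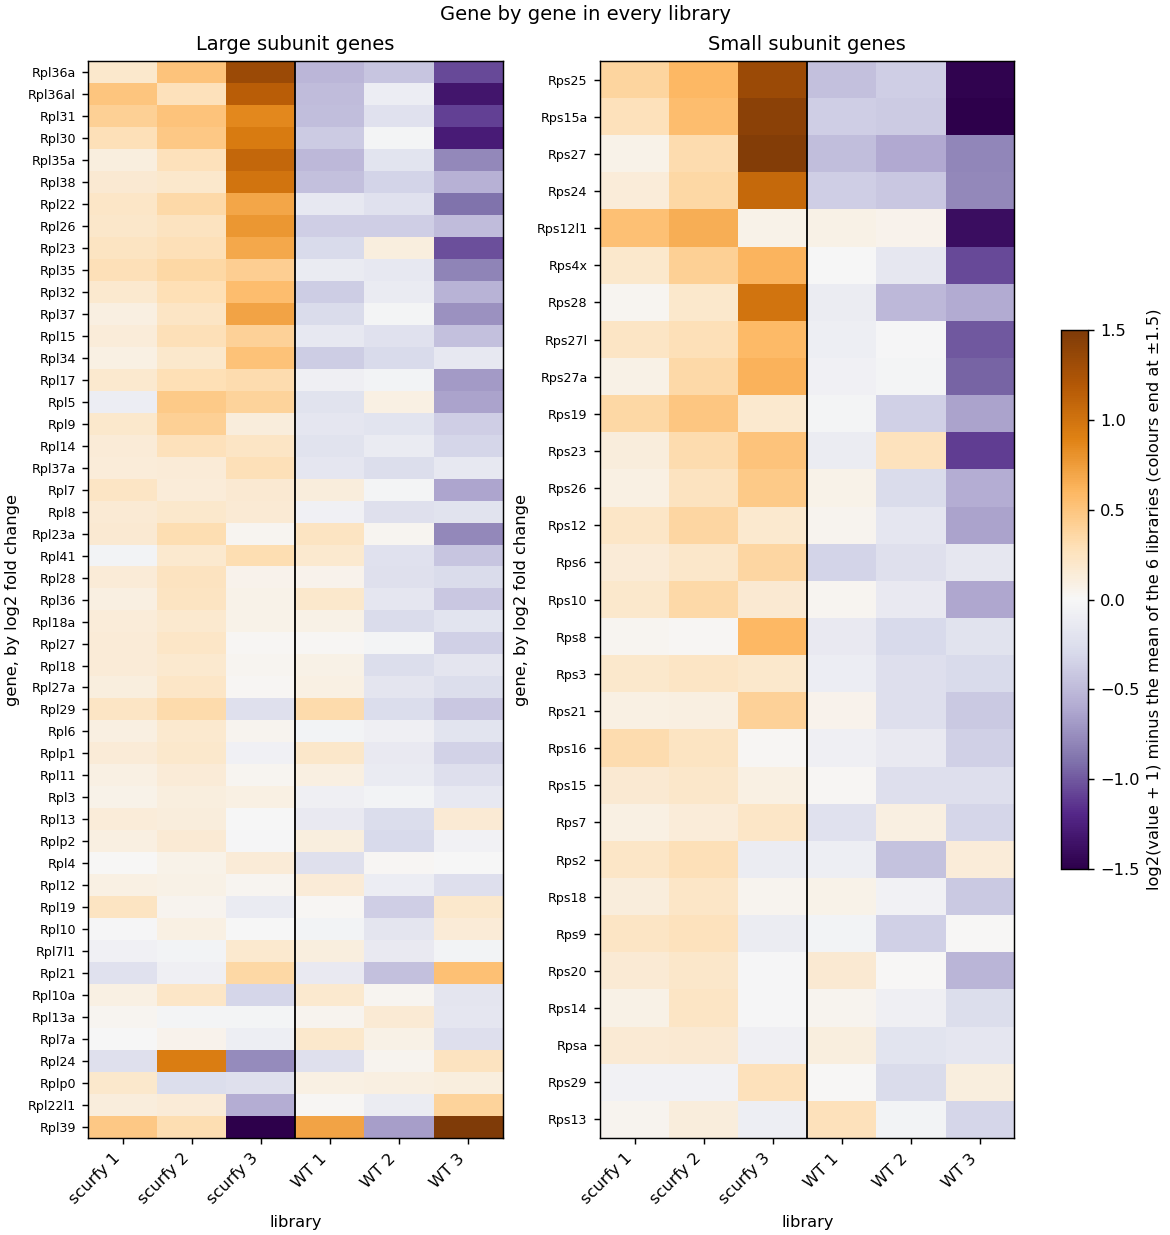
Log2(normalized count + 1) of 49 large and 29 small subunit genes in every library, minus the mean of the 6 libraries, with genes in order of log2 fold change and scurfy libraries left of wild-type libraries; orange is above and purple below the gene's mean. The top rows of both panels are darkest in scurfy 3 and WT 3, while scurfy 1 and 2 and WT 1 and 2 show the same direction more weakly.

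The heatmap by library shows that the difference was often widest between the libraries numbered 3. Scurfy library 3 was highest and wild-type library 3 lowest in 27 of the 81 members, 33.3%, against 7.62% of all genes. Wild-type library 3 was the lowest of the 6 in 56 of the 81 members, against 2309 of all 11581 genes. The median deviation of the members from their own means was 0.14, 0.22 and 0.18 in scurfy and −0.067, −0.18 and −0.36 in wild-type libraries on the log2 scale, so the groups lay apart with and without the libraries numbered 3. For the small subunit it was 0.16, 0.26 and 0.25 in scurfy and −0.070, −0.21 and −0.47 in wild-type libraries.

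Ribosomal protein messages are short, and most other short genes also had positive log2 fold changes. Among the 1336 other genes with under 1000 exonic bases, 116 rose and 8 fell, with a median log2 fold change of 0.32. The 41 members under this length had 9 that rose and a median of 0.40. The 40 longer members also had 9 that rose and a median of 0.32. When a smooth trend with exonic length was taken out of each library, 3 large and 2 small subunit members rose, against 0.941% of all genes called higher, and the medians were 0.094 and 0.27. The 5 were Rpl9, Rpl15, Rpl31, Rps19 and Rps24. Other genes of high level, the 183 with a mean of at least 5000 normalized counts, had 13 that rose (7.10%), 8 that fell and a median of 0.020. The part of length in the members' difference was not tested beyond these values.

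**Figure D4:**
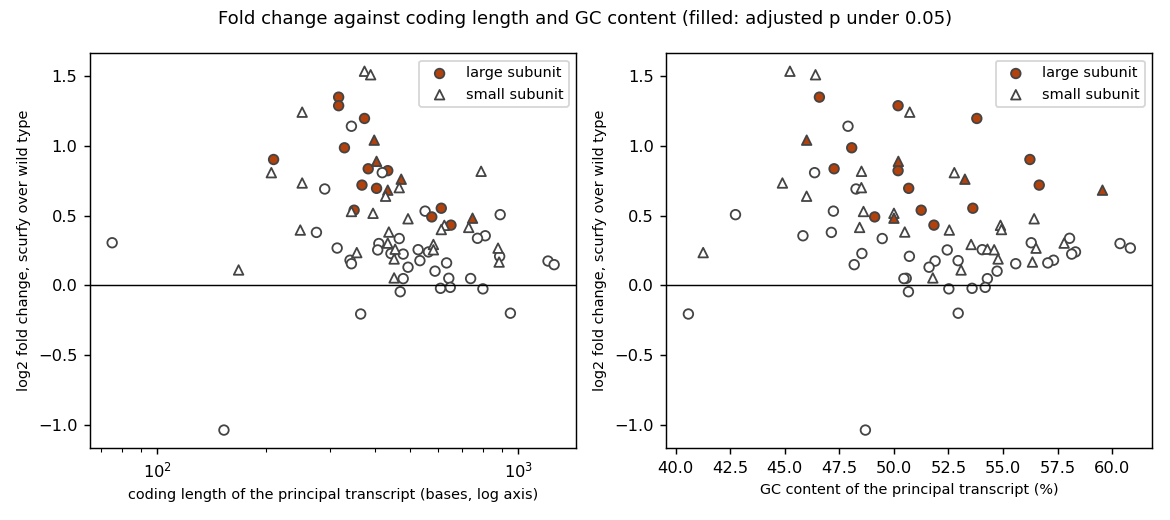
Log2 fold change (scurfy over wild type) of the 80 protein-coding members against the coding length (left, log axis, bases) and the GC content (right, percent) of the principal transcript; circles are large and triangles small subunit genes, filled where the adjusted p is under 0.05. Log2 fold changes above 1 are all at short coding lengths, and the longest coding sequences lie near 0.

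Among the 80 protein-coding members, those with a shorter coding sequence had larger log2 fold changes (Spearman's rho −0.40, across genes of the same 6 libraries and given as a description). The same correlation over 9834 other genes was −0.12. With the length of the principal transcript it was −0.32 among the members and −0.19 among the other genes, and with the exonic length, the measure used for the trend above, −0.036 and −0.20. With the GC content of the principal transcript the correlation was −0.33 among the members and 0.23 among the other genes, of opposite sign. With the mean level it was −0.11 among the members and 0.058 among the other genes. With the number of annotated pseudogenes that carry the member's name it was 0.063.

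Of the ribosome constituents outside the naming rule, 1 of 6 rose. Rps27rt, a retrotransposed copy of Rps27, had 332, 400 and 657 normalized counts in scurfy and 162, 158 and 166 in wild-type libraries, with a log2 fold change of 1.45 ± 0.22 and an adjusted p of 0.00464. It passed the test in all 6 fits that leave out a library, but reads of so close a copy of Rps27 are uncertain. Fau, Rack1, Rps3a1 and Rpl37rt had log2 fold changes of 0.0011, 0.045, −0.11 and 0.46 and did not pass the test. Of 75 mitochondrial ribosomal protein genes 5 rose (6.67%) and 1 fell, with a median log2 fold change of 0.12. Of 141 rows with names of ribosomal protein pseudogenes 18 rose (12.8%) and 1 fell, with a median of 0.51. Over all genes 2.12% were called higher. The pseudogene rows held 0.252 ± 0.0145% of the reads in scurfy and 0.191 ± 0.00426% in wild-type libraries (SD, n = 3 each).

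Other genes tied to ribosome production are set here against all genes, of which 2.12% were called higher and 2.35% lower. An unadjusted p under 0.05 was found for 2456 of all 11581 genes. Of 19 transcripts for elongation factors and others known to start with a pyrimidine tract, 2 rose (10.5%), Eef1a1 and Btf3, and 1 fell, Nap1l1. The median log2 fold change of the 19 was 0.020. Eef1a1, which brings transfer RNA to the ribosome, had 8097, 8599 and 10677 normalized counts in scurfy and 5736, 5940 and 5028 in wild-type libraries, with a log2 fold change of 0.71 ± 0.12 and an adjusted p of 0.00758. Btf3, of the nascent chain complex, rose by 0.53 ± 0.13 with an adjusted p of 0.0376, and the log2 fold change of the histone chaperone Nap1l1 was −0.39 ± 0.10 with an adjusted p of 0.0471. Btf3 kept the call in 2 and Nap1l1 in 0 of the 6 fits that leave out a library, with the highest adjusted p, 0.114 and 0.138, without wild-type library 3. None of 14 genes of the mTORC1 pathway with Larp1 passed the test, 3 having an unadjusted p under 0.05, and edgeR called none. The smallest p was that of Tsc1, an inhibitor of mTORC1, with 450, 358 and 307 normalized counts in scurfy and 509, 513 and 567 in wild-type libraries and an adjusted p of 0.0749. DESeq2 called Tsc1 lower. The others with an unadjusted p under 0.05 were Rheb, with a log2 fold change of −0.49, and Tsc2, with 0.37. Their adjusted p were 0.0933 and 0.120, so 2 of the 3 were lower and 1 higher. The median log2 fold change of the 14 was −0.016. None of 32 factors of subunit assembly passed the test, 6 having an unadjusted p under 0.05. The smallest p among them was that of Rrs1, which helps to place the 5S particle, with 81.1, 56.1 and 48.5 normalized counts in scurfy and 153, 85.5 and 205 in wild-type libraries and an adjusted p of 0.0547. Both edgeR and DESeq2 called Rrs1 lower, and DESeq2 called Znhit3 higher. Of 27 genes for the synthesis and processing of ribosomal RNA, 2 rose (7.41%) and none fell. These were Nop10 and Nhp2, core proteins of the complexes that turn uridines of ribosomal RNA into pseudouridines, with log2 fold changes of 1.66 ± 0.25 and 0.47 ± 0.10 and adjusted p of 0.00622 and 0.0201. Nop10 kept the call in all 6 fits that leave out a library. Nhp2 lost it in 3 of them, without scurfy library 2 or wild-type library 2 or 3, at up to 0.0683.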

How the data were processed

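Polyadenylated RNA was reverse transcribed from indexed poly-dT primers, amplified by in vitro transcription and sequenced on a NextSeq 500, per the labels' protocols. Per the submitters' processing notes, Trim Galore 0.4.4, STAR 2.6, featureCounts, edgeR and DESeq2 were named, with build NCBIM37. The sources used here do not say whether strand was used or how reads with several matches were counted. Each deposited value is a normalized signal: reads on a gene over 1 factor for its library, a unit inferred from the values. All nonzero values of each library were whole multiples of 1 read within 0.01 read, so whole reads were recovered. The authors' own comparison, per the file headers a log2 fold change with its error, a test score and p-values, was used for counts of calls. Low genes had been removed from the deposited table (smallest mean 7.10), so genes without a row say nothing.

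Tests used limma 3.58.1 (R 4.3.3), fitted to log2(value + 1) over all 11581 genes, 3 scurfy against 3 wild-type libraries, with a variance trend, robust moderation and no covariate. Log2 fold changes on that scale understate changes of low genes. The fits were checked on simulated data. GENCODE M21 (11571 gene IDs matched) gave lengths, and the principal transcript was the annotated one. Alternatives were pseudocounts of 0.5 and 5, a mean of at least 50, edgeR 4.0.16 and DESeq2 1.42.0, other scalings, a length trend, leaving out libraries and a replicate block. Members and lists were chosen with earlier results of these data known. Values per library are given by a rule for members past the threshold (up to 8 per subunit by p), the extremes of fold change and level, the stalk, Rpsa and paralogs, and from each related list for up to 3 genes past the threshold or the 1 with the smallest p. Other members named beside them, such as Rps15a and Rpl30, were chosen after their values were seen. Some members and list genes are counted but not reported here one by one, nor drawn in the plots that name genes.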

Additional observations from a re-analysis of the deposited data

How the results depend on the processing

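The count of all genes called, 518, was 891 with DESeq2, 929 with the library total scaling, 249 with the length trend removed, 290 without the libraries numbered 3 of both groups and 113 to 403 on leaving out single libraries. Large subunit members that rose numbered 3 with the length trend removed and 2 to 12 on leaving out single libraries, against 13, and small subunit members 2 with the length trend removed, 17 with DESeq2, 10 without the libraries numbered 3 and 2 to 6 on leaving out single libraries, against 5. The large subunit median log2 fold change was 0.13 with the library total scaling, 0.094 with the length trend removed and 0.22 to 0.39 on leaving out single libraries, and the small subunit median was 0.27 with the length trend removed and 0.37 to 0.57 on leaving out single libraries. Deviations of same-numbered libraries from their group means had correlations of −0.03, −0.07 and −0.15, and those of differently numbered libraries −0.12 to 0.16. With 3 libraries a group these values cannot decide whether the replicate numbers pair the libraries. With the replicate block the counts were 372 genes, 7 large and 5 small subunit members. With the length trend removed 14 of the 81 members changed sign, with the library total scaling 7, without the libraries numbered 3 of both groups 6, and on leaving out single libraries 0 to 7. None of the 18 that rose was among them. Of the members given above with values per library, those that changed sign had these log2 fold changes. Rpl39 was 0.37 without the libraries numbered 3. Rplp1 and Rplp2 were −0.22 and −0.021 with the length trend removed. Rpl24 was 0.11 with edgeR, 0.12 with DESeq2, 0.44 without the libraries numbered 3 and −0.52 to 0.33 on leaving out single libraries. Rps13 was −0.084 with the library total scaling, −0.031 with the length trend removed, −0.036 without the libraries numbered 3 and −0.093 to 0.20 on leaving out single libraries. Rpl7l1 was −0.088 with the library total scaling, −0.037 without the libraries numbered 3 and −0.029 to 0.11 on leaving out single libraries. Rpl22l1 was 0.18 without the libraries numbered 3 and −0.33 to 0.036 on leaving out single libraries. The causes were not tested. Rpl24 and Rps12l1 had the lowest means of the large and small subunit members, 35.2 and 23.4 normalized counts. The part of depth in the members' values was not tested.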
